A study of Mus musculus with 2 samples.

Results

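The respiratory chain and ATP synthase genes taken here comprised 97 of the 27998 genes counted, 84 nuclear and 13 encoded on mitochondrial DNA. They were chosen by symbol, with earlier results of these data known, so subunit genes with other symbols are left out. The nuclear genes were the Nduf genes grouped with complex I (37 genes), Sdha to Sdhd of complex II (4) and the Uqcr genes of complex III (8). To these came Cox4 to Cox8 of complex IV (18), the Atp5 genes grouped with complex V (17), and the mt- mRNAs. Complexes were assigned by symbol too, which need not match where a protein belongs, as with Ndufa4. Cells came from 1 wild-type C57BL/6 liver at E12.5, dissociated, sorted to remove debris, dead cells and doublets, and loaded as 2 technical replicate 10x libraries. There was no other genotype, age or treatment, and no second animal, so no test between groups was possible and each value is given for both libraries, library 1 first. Intervals (95%, exact) cover counting error only.

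The kept cells numbered 5480 and 5057, with medians of 6261 and 9774 unique molecular identifiers (UMIs, counted RNA molecules) per cell. The deposited cell types were progenitor and stem cells (HPSC), erythroid-committed progenitors (Ery, subclusters Ery 1 and Ery 2), erythroblasts (Eryb, Ery 3 to Ery 6), primitive erythroblasts (EryP), megakaryocytic cells (Mk), granulocytic cells (G), monocytes and Kupffer cells (Mo/KC), hepatoblasts (Hepa) and endothelial cells (EC). Of 27 marker genes, 22 were highest in their own cell type in both libraries. The exceptions were Myb (higher in G than in HPSC), Klf1 and Epor (Ery or Eryb, depending on the library), Gata1 (highest in Mk) and Hba-a1 (highest in EryP). The libraries shared 31 cell barcodes, 18 of them with the same cell type in both. Clusters had been built from these same counts, so differences between clusters are descriptions.

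Complexes I to IV pass electrons from NADH and succinate to oxygen. Complexes I, III and IV also pump protons across the inner mitochondrial membrane, and complex V uses the resulting gradient to make ATP. Complex II is built from nuclear genes alone, whereas the other complexes mix nuclear subunits with subunits made inside the mitochondrion. Erythroid cells need mitochondria to make heme and iron-sulfur clusters, and discard them as they mature into erythrocytes.

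Promoter sequences are shown for the genes of ATP synthase subunit c, which encode the same mature proton-carrying protein and differed in their proportions between cell groups, and for Cox6a1, a complex IV subunit gene whose share was among the best kept. RefSeq promoters were matched for 66 of the 84 nuclear members. The sequences run 5′ to 3′ over the bases upstream of the RefSeq start (GRCm38.p6). Capitals mark matches on either strand to the NRF1 motif (the capitals of Atp5g2), the GABP motif CCGGAAG, the YY1 motif AAGATGGCG or the GATA motif AGATAA.
Atp5g1, chr11:96075632-96075881, minus strand: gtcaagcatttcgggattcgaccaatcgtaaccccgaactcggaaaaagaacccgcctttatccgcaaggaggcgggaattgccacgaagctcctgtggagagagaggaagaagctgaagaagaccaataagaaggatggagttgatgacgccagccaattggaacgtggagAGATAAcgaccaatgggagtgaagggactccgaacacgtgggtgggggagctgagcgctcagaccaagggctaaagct
Atp5g2, chr15:102671048-102671297, minus strand: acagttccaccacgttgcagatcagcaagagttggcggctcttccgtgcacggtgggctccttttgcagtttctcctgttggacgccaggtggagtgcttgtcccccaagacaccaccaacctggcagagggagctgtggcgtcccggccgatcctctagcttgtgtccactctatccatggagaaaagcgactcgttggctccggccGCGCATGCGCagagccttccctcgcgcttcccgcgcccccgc
Atp5g3, chr2:73911327-73911576, minus strand: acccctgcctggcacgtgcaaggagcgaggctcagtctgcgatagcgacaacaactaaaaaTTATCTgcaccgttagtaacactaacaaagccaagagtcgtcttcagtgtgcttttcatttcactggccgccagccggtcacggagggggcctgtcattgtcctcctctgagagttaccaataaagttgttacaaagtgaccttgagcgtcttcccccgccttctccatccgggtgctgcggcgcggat
Cox6a1, chr5:115348959-115349208, minus strand: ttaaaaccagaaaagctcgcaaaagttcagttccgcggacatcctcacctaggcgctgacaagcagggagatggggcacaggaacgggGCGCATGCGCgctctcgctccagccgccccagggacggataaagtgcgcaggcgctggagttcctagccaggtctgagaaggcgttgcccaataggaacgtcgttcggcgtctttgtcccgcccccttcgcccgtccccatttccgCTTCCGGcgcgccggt
NRF1 and GABP are known activators of nuclear genes for mitochondrial proteins. The Atp5g2 window held the NRF1 letters, the Atp5g1 and Atp5g3 windows a GATA match each, and the Cox6a1 window the NRF1 and GABP letters. Over the matched windows, which also reach into the first bases of the transcript, the NRF1 letters were in 5 members, or 7.58% against 0.977% of all 27025 promoters. The GABP letters were in 15 members (22.7% against 9.12%), the YY1 letters in 6 (9.09% against 1.49%) and the GATA letters in 6 (9.09% against 11.4%). The other windows with the NRF1 letters were those of Atp5k, Uqcrc1 and Ndufa11. All 6 YY1 matches lay 22 to 35 bases past the RefSeq start, and the NRF1 match of Uqcrc1 30 bases past it. None of these was upstream of the start. These matches are letters in a window and say nothing about binding. The upstream window of Atp5g2 lies inside the longer gene model of the GENCODE annotation. Those of Atp5g1 and Cox6a1 also run into their gene models over the bases nearest the RefSeq start. In Cox6a1 these bases include the GABP letters.

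Across the 9 cell types, hepatoblasts devoted the largest share of all UMIs to the nuclear members and primitive erythroblasts the smallest (plot of shares by cell type). The nuclear genes took 3.25% (3.21 to 3.30) and 3.51% (3.47 to 3.55) of UMIs in Hepa, and 0.634% and 0.535% in EryP. Committed progenitors followed hepatoblasts in library 1, with 3.02% and 3.18% in Ery, whereas EC had 2.75% and 3.32%. HPSC had 2.62% and 2.79%, Mo/KC 2.48% and 2.75%, Mk 2.49% and 2.85%, G 2.27% and 2.48%, and Eryb 1.76% and 1.30%. Thus the order of EC, Ery, HPSC, Mk and Mo/KC differed between libraries or was closer than the gap between libraries, whereas Hepa, G, Eryb and EryP kept their places.

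**Figure D1:**
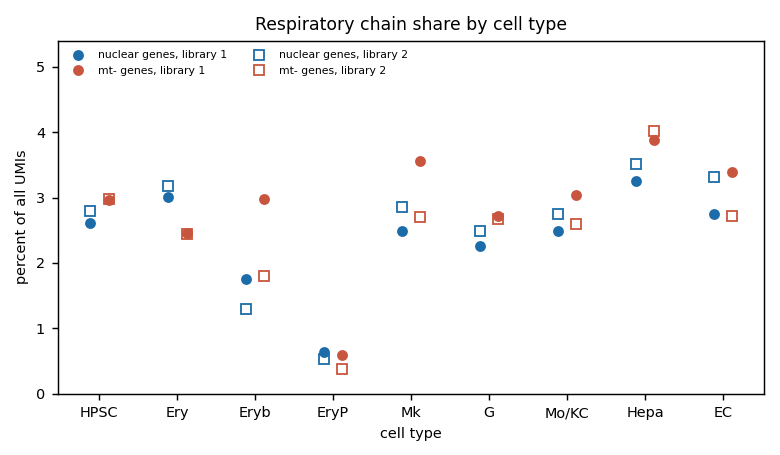
Share of all UMIs (y axis, percent) of the 84 nuclear (blue) and 13 mt- (red) respiratory chain genes in each cell type (x axis). Filled circles are library 1 and open squares library 2. EryP sits lowest, at 0.634% and 0.535% for nuclear genes, and Hepa highest for nuclear genes.

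The mt- mRNAs were likewise highest in Hepa, at 3.88% (3.83 to 3.93) and 4.02% (3.98 to 4.07), and lowest in EryP, at 0.589% and 0.383%, as shares of all UMIs. Without globin UMIs the order turned. Eryb was then highest, with 4.70% and 4.42% against 3.95% and 4.23% in Hepa, and EryP had 2.53% and 2.19% against 2.51% and 2.57% in Ery. In library 1, 2 of 170 EryP cells had over 10% mt- UMIs and supplied 22.9% of all EryP mt- UMIs. Library 2 had no such EryP cell. Ery was the cell type with the lowest mt- share outside Eryb and EryP, at 2.45% and 2.44%, although it stood near the top for nuclear genes. HPSC had 2.96% and 2.98% mt- UMIs. Consequently, mt- UMIs per nuclear UMI were 0.813 and 0.767 in Ery but 1.13 and 1.07 in HPSC. Barcodes with 1 to 50 UMIs, which sample RNA free in the suspension, carried 2.09% and 1.84% nuclear and 4.20% and 4.05% mt- UMIs. In the deposited cells the mt- share of Eryb was 2.97% in library 1 but 1.80% in library 2, a gap far wider than either counting interval, and globin took 36.7% and 59.2% of Eryb UMIs. Without globin the Eryb shares of 4.70% and 4.42% lay close together.

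Of 77 nuclear members expressed, 24 (31.2%) were highest in Hepa in both libraries, compared with 6.67% of all 6567 genes considered in the same way, and 12 (15.6%) were highest in Ery, near the 16.4% of all genes. The 24 included Cox5b, Atp5g1 and Uqcr11, and the 12 included Sdhd, which anchors complex II in the membrane, and Uqcrc1 and Uqcrc2, the core proteins of complex III. Hepa also led for 6 of 12 mt- mRNAs: mt-Nd1, mt-Nd2, mt-Nd3, mt-Nd5, mt-Co1 and mt-Co2. Hepa had only 33 and 31 cells. Globin took 76.7% and 82.5% of EryP UMIs. Without globin UMIs, nuclear members made up 2.72% and 3.06% in EryP, and G had the smallest share, with 2.31% and 2.60%. On that scale 15 members (19.5%) were highest in Hepa, compared with 5.94% of all genes, and 13 (16.9%) in EryP, compared with 7.58%. Of the 12 mt- mRNAs, Hepa then led for 4 and EryP for mt-Co1. Eryb led for 3 (mt-Atp6, mt-Co3 and mt-Nd4), or 25%, compared with 10.0% of all genes. In Eryb, 183 cells of library 1 and 17 of library 2 had over 10% mt- UMIs. They supplied 12.9% and 2.83% of the mt- UMIs of Eryb.

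HPSC carried complex IV isoforms that erythroid cells all but lacked. Cox6a2, known as the heart and muscle isoform of subunit 6A, had 73 and 106 UMIs in HPSC, or 21.2 CPM (UMIs of a gene per 1000000 UMIs, 16.6 to 26.6) and 33.9 CPM (27.8 to 41.0). It had 2 UMIs in Ery in each library, 4 and 2 in Eryb, at most 1 in Mo/KC or Hepa, and 0 in Mk, G, EC and EryP, where 3 counts allow up to 3.90 and 2.96 CPM in Mk. Free RNA gave 1.01 and 1.53 CPM. Cox6a2 thus supplied 5.61% and 6.78% of subunit 6A UMIs in HPSC, and 0.0477% and 0.0414% in Ery 1. Cox4i2, the subunit 4 isoform best known from lung, stood at 15.9 and 12.2 CPM in HPSC, 3.70 and 7.38 CPM in G, 10.3 and 5.65 CPM in Mo/KC, and 0 and 0.167 CPM in Ery. Endothelial cells had 0 and 6 Cox4i2 UMIs. Even in HPSC, Cox4i1 made up 98.8% and 99.1% of subunit 4.

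Cox7a2l, which encodes a supercomplex assembly factor related to subunit 7A, was also highest in HPSC, at 631 and 628 CPM compared with 329 and 331 CPM in Ery. It took 67.4% and 63.3% of subunit 7A family UMIs in HPSC, 43.5% and 39.9% in Ery 1, and 22.7% and 17.4% in Ery 6. Ndufa4, grouped with complex I by its name but known as a complex IV subunit, was likewise highest in HPSC, with 921 and 969 CPM against 621 and 651 CPM in Ery. Its paralogue Ndufa4l2, known as a hypoxia-induced gene, showed the opposite pattern. It had 2 UMIs in HPSC in each library, but 28.1 and 27.8 CPM in Ery, with 32.4 and 33.8 CPM in Ery 2. Hepa had 10.9 and 24.7 CPM of Ndufa4l2, and EC 0 and 17.6 CPM. Cox7b2, Cox8b and Cox8c, which are known mainly from testis or muscle, had no UMI in any cell type, which allows up to 0.157 and 0.167 CPM in Ery. Cox7a1, the muscle isoform of subunit 7A, had at most 7 UMIs in any cell type.

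Along the erythroid subclusters, nuclear and mitochondrial members parted. The globin share ordered the subclusters from Ery 1 to Ery 6, from 1.07% to 58.1% of UMIs in library 1 and from 2.37% to 78.5% in library 2. The nuclear share was 3.04%, 2.99%, 2.53%, 1.79%, 1.01% and 1.05% from Ery 1 to Ery 6 in library 1. In library 2 it was 3.26%, 3.11%, 2.38%, 1.42%, 0.661% and 0.645%. Both libraries thus showed a near-level share in Ery 1 and Ery 2 and a decline from Ery 3 that ended at Ery 5. The mt- share was 2.43%, 2.48%, 3.66%, 3.83%, 1.64% and 1.53% in library 1. In library 2 it was 2.40%, 2.49%, 2.98%, 2.23%, 0.988% and 0.816%. This summed share peaked in Ery 4 in library 1 and in Ery 3 in library 2, before the lowest values in Ery 5 and Ery 6. The mt- share of the median cell was highest in Ery 3 in both libraries, at 3.62% and 2.91%, against 2.88% and 1.94% in Ery 4.

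**Figure D2:**
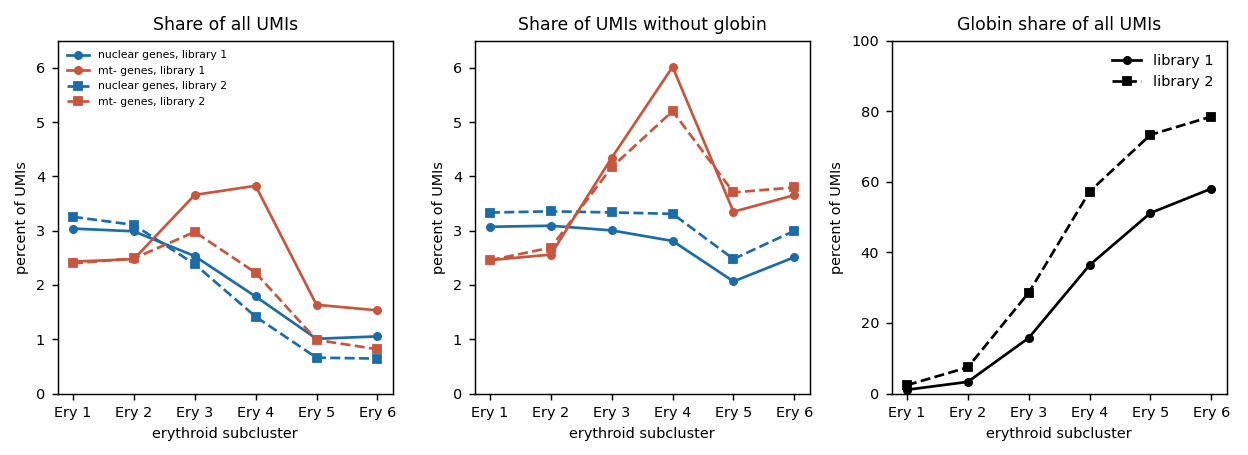
Share of UMIs (y axes, percent) of nuclear (blue) and mt- (red) respiratory chain genes in the erythroid subclusters Ery 1 to Ery 6 (x axes), of all UMIs (left) and of UMIs without globin (middle), and the globin share (right). Solid lines with circles are library 1 and dashed lines with squares library 2. Without globin the nuclear share was near level up to Ery 4, whereas the mt- share reached 6.02% and 5.20% there.

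Since globin filled most of the late cells' UMIs, the shares were also taken of the other UMIs. On that scale the nuclear share was 3.07%, 3.09%, 3.01%, 2.81%, 2.07% and 2.51% in library 1 and 3.33%, 3.36%, 3.34%, 3.31%, 2.48% and 2.998% in library 2. It was therefore level to within 10% up to Ery 4 and lowest in Ery 5. The mt- share without globin was 2.46%, 2.56%, 4.34%, 6.02%, 3.35% and 3.66% in library 1, and 2.46%, 2.69%, 4.17%, 5.20%, 3.71% and 3.80% in library 2. Ery 4 exceeded Ery 1 by 2.45-fold (2.44 to 2.46) and 2.12-fold (2.11 to 2.13). The mt- UMIs per nuclear UMI were 0.800 and 0.737 in Ery 1, 2.14 and 1.57 in Ery 4, and 1.46 and 1.27 in Ery 6. Ery 4 of library 1 held 168 cells (12.4%) with over 10% mt- UMIs, compared with 14 cells (1.16%) in library 2. These cells supplied 27.2% and 6.30% of the mt- UMIs of Ery 4, whose median cell had 2.88% and 1.94% mt- UMIs. No kept cell of library 2 had fewer than 4387 UMIs, so the 12.4% and 1.16% cover different ranges of depth. With that minimum in both libraries, the mean log2 ratio of mt- to nuclear UMIs in Ery 4 against Ery 1 was 1.07, compared with 1.26 in all cells. In molecules per cell, nuclear members averaged 800.3 and 842.0 UMIs in Ery 1, 104.8 and 135.9 in Ery 4, and 49.2 and 54.3 in Ery 6. The mt- mRNAs averaged 639.9 and 620.2, 224.4 and 213.6, and 71.6 and 68.8 UMIs. Fewer molecules per cell and lower capture per cell cannot be told apart.

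Gene by gene, 76 of the 84 nuclear and 11 of the 13 mt- members passed the abundance filter of 10 CPM on average over Ery 1 to Ery 6 in each library. The others were Cox4i2, Cox6a2, Cox7a1, Cox7b2, Cox8b, Cox8c, Atp5s, Atp5sl, mt-Atp8 and mt-Nd6. Ery 2 differed from Ery 1 by 1.5-fold in none of them, on all UMIs (7.92% of all 4875 genes tested lower, 6.73% higher) or without globin (6.63% and 7.69%). In Ery 3, 13 nuclear members were lower than in Ery 1 (40.5% of all genes) and none higher (11.2%). They included Ndufb5, Sdhb, Sdhd, Cox5a, Atp5g1 and Atp5g2. Without globin, 4 were lower (28.1%), namely Ndufb5, Sdhb, Sdhd and Atp5g2, and Cox6a1 and Atp5h were higher (18.3%), as were 8 of 11 mt- members. In Ery 5 against Ery 1, 71 of the 76 nuclear members were at least 1.5-fold lower in both libraries and none higher, where 69.6% of all genes were lower and 9.56% higher. Their median log2 ratio was -1.75 and -2.38, near that of all genes at -1.65 and -2.41. Of the mt- members 8 of 11 were lower. Without globin UMIs, 35 nuclear members were lower and 2 higher (47.5% and 27.0% of all genes), so the share lower was near the background. In Ery 6 against Ery 1, 69 nuclear members were lower and none higher (78.3% and 7.55% of all genes). Without globin, 25 were lower and 8 higher (58.0% and 21.7% of all genes), with medians of -0.32 and -0.21 against -1.10 and -1.07 for all genes. From Ery 5 to Ery 6, 2 nuclear members were lower and none higher (38.6% and 4.55% of all genes), and without globin none was lower and 6 were higher (27.7% and 8.53%). In Eryb against Ery, 52 nuclear members were lower and none higher (62.3% and 8.25% of all genes), and without globin 13 were lower and 2 higher (37.9% and 22.9%).

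Ery 4 showed the parting most plainly (plot of ratios by complex). On all UMIs, 45 nuclear members were lower than in Ery 1 and none higher (61.1% and 10.6% of all genes), and no mt- member was past 1.5-fold in both libraries. Without globin UMIs, 17 nuclear members were lower and 6 were higher (40.6% and 25.8% of all genes). The 6 were Ndufb11, Ndufb7, Ndufa3, Cox6a1, Cox6b2 and Atp5h, small accessory or stalk subunits. By contrast 8 of 11 mt- members were higher and none lower. The genes that build and supply the chain were mostly lower there: 63 of 76 mitochondrial ribosomal proteins, 16 of 19 genes of mitochondrial DNA expression, 25 of 33 assembly factors and 10 of 16 TCA cycle genes. Their median log2 ratios were -1.27 and -1.19, -1.68 and -1.46, -1.39 and -1.28, and -0.92 and -0.88, compared with -0.06 and 0.07 for the nuclear members and -0.36 and -0.34 for all genes. Only genes that passed the filter are counted here, and a gene high only in the early subclusters can pass it.

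**Figure D3:**
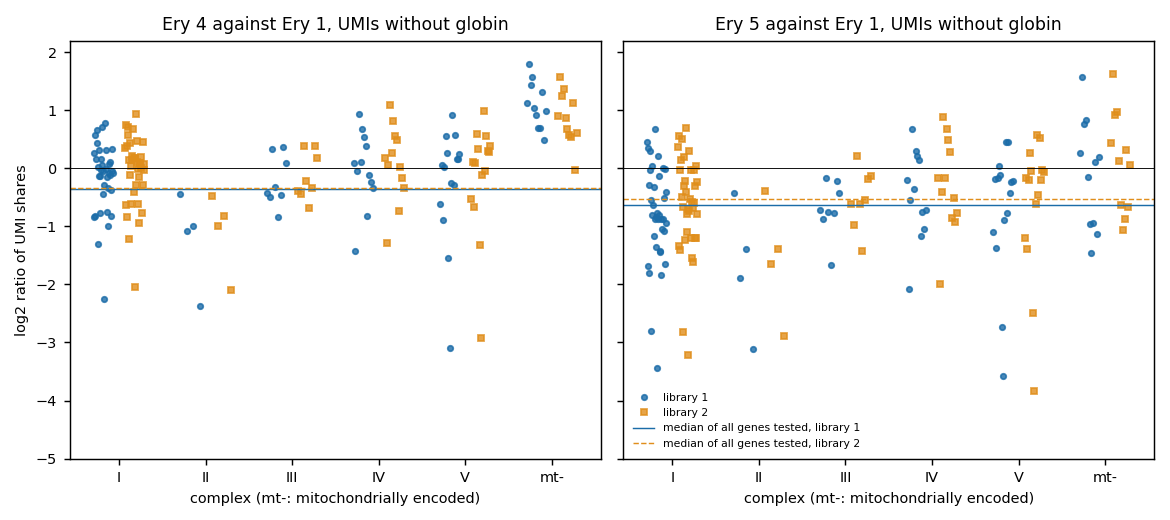
Log2 ratio of UMI shares without globin (y axis) for each respiratory chain member that passed the filter, by complex (x axis), in Ery 4 (left) and Ery 5 (right) against Ery 1. Blue circles are library 1, orange squares library 2, and horizontal lines the median of all 4875 genes tested. Complex II and single genes of complexes I, IV and V sit lowest, and mt- genes highest in Ery 4.

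Complex II had the lowest late level of the complexes relative to Ery 1. Its summed share of all UMIs was 7.02-fold (6.39 to 7.72) and 11.5-fold (10.5 to 12.6) lower in Ery 5 than in Ery 1. Complex I was 3.20-fold and 5.16-fold lower, complex III 3.11-fold and 4.86-fold, complex IV 2.63-fold and 4.30-fold, and complex V 2.94-fold and 4.99-fold. The gap opened before Ery 5, since complex II was already 2.53-fold and 2.32-fold lower in Ery 4 without globin, while complexes I, III, IV and V were between 1.11-fold lower and 1.08-fold higher. Sdhd had 485, 412, 187, 60.3, 27.7 and 26.5 CPM from Ery 1 to Ery 6 in library 1, and 438, 354, 147, 44.6, 16.2 and 13.6 CPM in library 2. It was 17.5-fold (14.0 to 22.1) and 27.0-fold (22.0 to 33.4) lower in Ery 5 than in Ery 1. Sdhb, the iron-sulfur subunit, was 7.53-fold and 11.5-fold lower, and Sdhc, the other membrane anchor, 5.29-fold and 9.54-fold. Sdha, the flavoprotein that oxidizes succinate, was 2.73-fold and 4.77-fold lower. The members of this 4-subunit enzyme therefore did not keep their proportions, and Sdha alone stayed within 1.5-fold of Ery 1 without globin, with log2 ratios of -0.43 and -0.38.

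Within complex I, Ndufb5, an accessory subunit of the membrane arm, had 446, 365, 189, 60.0, 20.2 and 19.1 CPM from Ery 1 to Ery 6 in library 1. In library 2 it had 456, 383, 186, 48.5, 13.5 and 11.7 CPM. It was lower in each later subcluster in both libraries, by 22.1-fold (17.1 to 29.1) and 33.8-fold (27.1 to 42.8) in Ery 5 against Ery 1. Ndufa4l2 was 14.1-fold (5.95 to 43.8) and 26.0-fold (11.0 to 80.9) lower in Ery 5, on 5 UMIs there in each library. It had 24.1 and 22.2 CPM in Ery 1 but 6.29 and 4.16 CPM in Ery 4. Ndufa4l2 passed the filter only through Ery 1 to Ery 3, where it was high, which favours a low ratio in Ery 5. At the other end, Ndufb11 had 202 and 240 CPM in Ery 1 and 160 and 107 CPM in Ery 5. For Ndufa11 the levels were 167 and 204 CPM in Ery 1, against 105 and 81.9 CPM in Ery 5. Without globin UMIs both were higher in Ery 5 than in Ery 1, by 0.68 and 0.70 on the log2 scale for Ndufb11 and by 0.36 and 0.56 for Ndufa11. Ndufa4, known as a complex IV subunit, was 2.95-fold and 5.17-fold lower. Ndufb5 thus lay far from Ndufb11 and Ndufa11, subunits of the same arm of complex I.

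Complex III members lay closer together. Uqcrh, the hinge protein and the most abundant, had 475 and 612 CPM in Ery 1 and 202 and 147 CPM in Ery 5. Uqcrb was 2.28-fold and 3.18-fold lower in Ery 5. Uqcrc2 was 6.46-fold (5.50 to 7.63) and 9.81-fold (8.50 to 11.4) lower, and Uqcr11 3.69-fold and 7.16-fold.

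Complex IV members lay further apart. Cox4i1, its most abundant nuclear member, had 1567, 1573, 1434, 1081, 672 and 628 CPM from Ery 1 to Ery 6 in library 1, and 1585, 1535, 1254, 787, 386 and 356 CPM in library 2. Cox5a had 746, 641, 428, 180, 87.3 and 52.7 CPM, and 758, 646, 427, 137, 51.9 and 28.7 CPM. It was 8.55-fold (7.55 to 9.73) and 14.6-fold (13.0 to 16.4) lower in Ery 5 than in Ery 1, although its protein sits beside Cox4i1 in the complex. Cox6a1 had 425, 425, 554, 523, 338 and 353 CPM in library 1. The library 2 levels were 520, 537, 584, 484, 261 and 249.7 CPM. Hence Cox6a1 was higher in Ery 3 than in Ery 1 even as a share of all UMIs. Cox6b2, known mainly from testis, was clearly counted in erythroid cells. From Ery 1 to Ery 6 it had 138, 150, 131, 142, 83.9 and 147 CPM, and 148, 165, 124, 115, 64.5 and 92.6 CPM. HPSC had 37.7 and 36.5 CPM of it and Mo/KC 14.7 and 24.8 CPM. Cox6b2 supplied 8.31% and 6.73% of subunit 6B UMIs in HPSC, 22.4% (21.3 to 23.4) and 20.6% (19.7 to 21.6) in Ery 1, and 41.3% (39.1 to 43.4) and 38.4% (36.5 to 40.4) in Ery 6. EryP had 32.4% and 36.1%, within the range of Ery 4 to Ery 6.

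Complex V contained the gene with the lowest ratio of all members. Atp5b, the catalytic beta subunit, had 1801 and 1816 CPM in Ery 1 and 786 and 441 CPM in Ery 5, 2.29-fold and 4.11-fold lower. Atp5h and Atp5j2, subunits of the stalk and membrane part, were 1.48-fold and 2.45-fold, and 1.47-fold and 2.53-fold lower. The subunit c genes differed more. Atp5g2 had 861, 594, 250, 65.0, 35.6 and 27.8 CPM from Ery 1 to Ery 6 in library 1, and 863, 585, 249, 50.0, 16.6 and 12.0 CPM in library 2. It was 24.2-fold (19.9 to 29.6) and 52.1-fold (42.7 to 64.4) lower in Ery 5 than in Ery 1, and in free RNA it stood at 477 and 330 CPM. Atp5g1 had 1074, 897, 542, 236, 79.4 and 86.6 CPM, and 1278, 1071, 642, 223, 62.3 and 55.8 CPM. Atp5g3 had 460, 467, 390, 248, 123 and 104 CPM, and 439, 406, 319, 178, 78.5 and 52.9 CPM.

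The make-up of subunit c transcripts therefore turned over, whichever UMIs form the denominator. Atp5g2 was the main gene in HPSC, with 52.7% and 50.0% of subunit c UMIs, followed by 35.9% and 33.5% in Ery 1, 11.8% and 11.1% in Ery 4, and 12.7% and 9.95% in Ery 6. Atp5g3 went the other way, with 17.5% and 14.9% in HPSC, 19.2% (18.7 to 19.7) and 17.0% (16.5 to 17.5) in Ery 1, 51.7% (47.9 to 55.5) and 49.9% (46.6 to 53.2) in Ery 5, and 47.7% and 43.8% in Ery 6. Atp5g1 held 44.8% and 49.5% in Ery 1 and 33.3% and 39.6% in Ery 5. Outside the erythroid subclusters, Atp5g3 took between 14.8% and 28.8% in every cell type other than Eryb. The 3 genes sum to subunit c within each cell group, so a higher share of one can come from less of another, as here, where all 3 were lower in CPM.

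**Figure D4:**
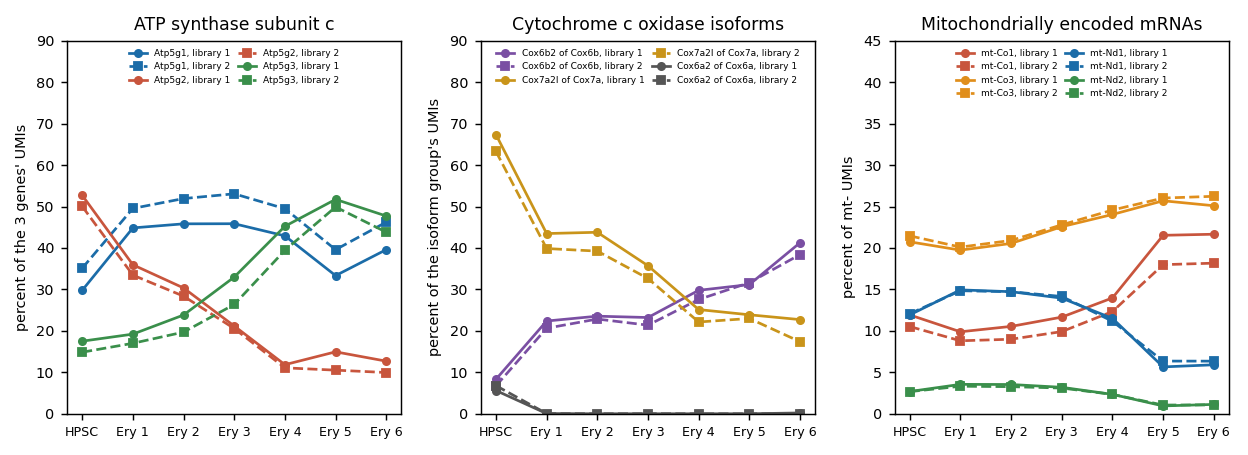
Share of UMIs (y axes, percent) of each ATP synthase subunit c gene among the 3 (left), of 3 complex IV isoforms within their isoform group (middle) and of 4 mt- mRNAs among all mt- UMIs (right), in HPSC and Ery 1 to Ery 6 (x axes). Solid lines with circles are library 1 and dashed lines with squares library 2. Atp5g2 went from over 50% to about 10%, and mt-Co1 from 9.89% and 8.80% in Ery 1 to 21.7% and 18.2% in Ery 6.

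The mt- mRNAs come from one long transcript of each DNA strand, yet their proportions differed between subclusters. mt-Co1, the catalytic subunit of complex IV, made up 9.89% (9.77 to 10.0) and 8.80% (8.69 to 8.92) of mt- UMIs in Ery 1, and 21.7% (21.4 to 21.9) and 18.2% (17.9 to 18.4) in Ery 6. It reached 29.7% and 26.6% in EryP. mt-Co3 made up 19.7% and 20.1% in Ery 1 and 25.1% and 26.2% in Ery 6. mt-Co2 made up 9.46% and 10.2%, and 11.5% and 12.7%. Complex I mRNAs went the other way. mt-Nd1 made up 14.9% and 14.8% in Ery 1 and 5.91% and 6.35% in Ery 6, and mt-Nd2 3.55% and 3.32%, and 1.13% and 1.07%. mt-Nd4 had 5.79% and 5.75%, and 4.55% and 4.70%. mt-Cytb of complex III had 10.0% and 10.3%, and 6.84% and 7.39%, and mt-Atp6 of complex V 25.5% and 25.8%, and 22.6% and 22.8%. The main step for mt-Nd1 and mt-Co1 lay between Ery 4 and Ery 5, where mt-Nd1 stood at 11.5% and 11.2% against 5.65% and 6.36%.

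Of the mt- genes, mt-Co1 had the highest ratio of Ery 5 to Ery 1, with 2404 and 2111 CPM in Ery 1, 5349 and 2744 CPM in Ery 4, and 3521 and 1777 CPM in Ery 5. The direction from Ery 1 to Ery 5 differed between libraries, but without globin mt-Co1 was higher in Ery 5 by 1.57 and 1.62 on the log2 scale. On that scale the mt- members at least 1.5-fold higher in Ery 5 than in Ery 1 were mt-Co1, mt-Co2 and mt-Co3, all of complex IV. The 4 that were lower, mt-Nd1, mt-Nd2, mt-Nd3 and mt-Nd4l, all belong to complex I. However, the other complex I mRNAs that passed the filter, mt-Nd4 and mt-Nd5, were slightly higher, by less than 1.5-fold. Of all genes tested, 27.0% were higher and 47.5% lower on that scale. The counts of mt- members called, of 11 tested, thus lay near or below the background. The mt-Nd4l ratio rested on 26 and 19 UMIs in Ery 5. In library 2 it had 18.7, 14.1 and 12.1 CPM in Ery 1 to Ery 3. In Ery 4 to Ery 6 it had 8.06, 3.24 and 3.94 CPM. mt-Nd4l thus passed the filter in library 2 only through the subclusters where it was high, which favours a lower value in Ery 5. mt-Nd3, mt-Nd4l, mt-Nd5, mt-Atp8 and mt-Nd6 each made up at most 0.677% of mt- UMIs in HPSC and Ery 1 to Ery 6. Neighbours whose annotated exons overlap on the same strand, mt-Atp8 with mt-Atp6, mt-Atp6 with mt-Co3 and mt-Nd4l with mt-Nd4, share reads that the counting may have split or dropped. The same holds for Ndufb2 and Ndufb8 among the nuclear members.

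Several lists of genes around the chain had lower medians than the nuclear members. In Ery 5 against Ery 1, all 76 mitochondrial ribosomal proteins tested (of 77 listed), all 19 genes of mitochondrial DNA expression (of 36), 29 of 33 assembly factors (of 47) and 15 of 16 TCA cycle genes were lower as shares of all UMIs, compared with 69.6% of all genes. Their median log2 ratios were -2.97 and -3.79, -3.01 and -3.90, -3.07 and -3.97, and -2.43 and -3.35, against -1.75 and -2.38 for the nuclear members. These counts and medians cover only genes that passed the filter. A gene high only in the early subclusters can pass it, which favours lower values in Ery 5, most of all where many listed genes failed. The list of carriers and inhibitor had -2.87 and -3.67, whereas the regulators stood above the nuclear members at -1.22 and -1.60. Tfam, which packages mitochondrial DNA and starts its transcription, had 114 and 102 CPM in Ery 1, 11.7 and 6.85 CPM in Ery 4 and 3.77 and 2.22 CPM in Ery 5. Among carriers, Slc25a4, an ADP/ATP exchanger, had 423 and 378 CPM in Ery 1 and 6.85 and 4.10 CPM in Ery 5. Cycs, which encodes cytochrome c, had 528 and 600 CPM, and 77.4 and 53.8 CPM. Of 12 genes tested (of 13) in the list of carriers and inhibitor, 9 were lower and 1 higher. Of all genes, 69.6% were lower and 9.56% higher. The higher gene was Ucp2, an inner membrane carrier, with 220 and 217 CPM in Ery 1, 927 and 591 CPM in Ery 4 and 1109 and 645 CPM in Ery 5. Atpif1, the inhibitor of ATP synthase, which is known to be needed for heme synthesis, had 960 and 1305 CPM in Ery 1, 1468 and 1330.3 CPM in Ery 4 and 955 and 785 CPM in Ery 5. Its Ery 5 level was thus near that of Ery 1 in library 1 and lower in library 2. Of the regulators of mitochondrial biogenesis 5 of 11 passed the filter, and 3 were lower. Ppargc1a had 0.101 and 0 CPM in Ery 1.

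Ery 2, at a low globin share, held a group of cells nearly free of mt- mRNA (plot of mt- share by cell). In library 1, 191 of 557 cells (34.3%, 30.4 to 38.4) had under 0.5% mt- UMIs, and in library 2, 51 of 459 (11.1%, 8.39 to 14.3). In Ery 1 there were 2 of 375 and 0 of 359 such cells, and in Ery 3 and Ery 4 none. In EryP, most of whose UMIs were globin, 132 of 170 (77.6%) and 101 of 118 (85.6%) cells were under this limit. There were 12 of 1218 and 250 of 1176 in Ery 6, and 1 of 497 and 37 of 590 in Ery 5. Mk had 7 of 79 and 1 of 56. The low cells of Ery 2 carried 0.114% and 0.153% mt- UMIs as a sum, compared with 2.65% and 2.64% in the other Ery 2 cells. Their nuclear members did not follow, with 3.10% (3.06 to 3.15) and 3.34% (3.29 to 3.39) of UMIs against 2.98% and 3.09%. Malat1, a long noncoding RNA retained in the nucleus, was also lower, at 90.7 and 264 CPM against 979 and 1057 CPM. The median low cell had 1773 and 9040 UMIs, compared with 23899 and 21412.5 in the others. No kept cell of library 2 had fewer than 4387 UMIs, so the 34.3% and 11.1% cover different ranges of depth. At 5000 UMIs or more, 40 low and 346 other Ery 2 cells remained in library 1, and 49 and 388 in library 2. These low cells carried 0.131% and 0.155% mt- and 3.11% and 3.34% nuclear UMIs. Their Malat1 level was 92.3 and 239 CPM, against 981 and 1049 CPM in the other Ery 2 cells with at least 5000 UMIs. Those other cells carried 2.65% and 2.63% mt- UMIs. Over all low cells of Ery 2, depth, Malat1 and mt- levels were each lower, and the part of depth in the low mt- share was not tested. Free RNA had over 4% mt- UMIs, but the low cells were defined by a share under 0.5%, so that gap was set by the limit.

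**Figure D5:**
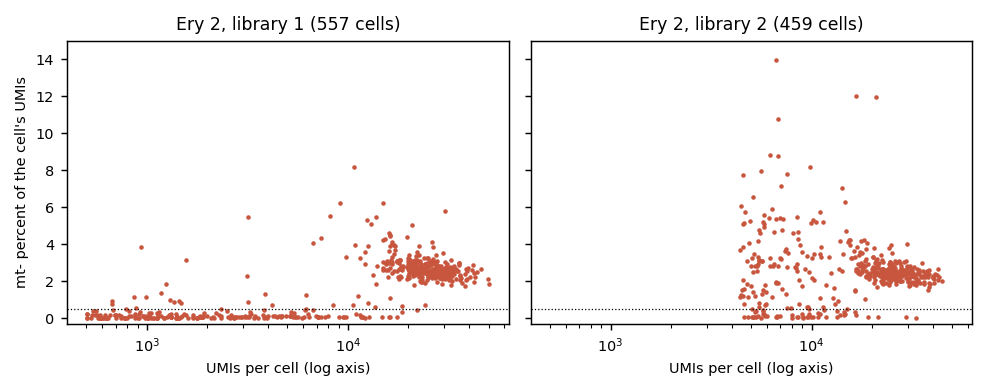
Percent of UMIs from mt- genes (y axis) against UMIs per cell (x axis, log scale) for each Ery 2 cell of library 1 (left) and library 2 (right). Each point is 1 cell and the dotted line marks 0.5%. The 191 and 51 cells below the line have medians of 1773 and 9040 UMIs, against 23899 and 21412.5 above it.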

How the data were processed

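The authors mapped reads of the 2 libraries to mm10 (per the labels) with Cell Ranger and deposited raw UMI counts per gene and barcode. The submitters' processing notes name Cell Ranger 2.1.1, Seurat 3.2.0 and bcl2fastq 2, whereas a matrix header names version 3.0.0. The authors' annotation, which names the cluster and type of each cell and holds no measurement, fixed which cells were used, tied to a library by the barcode suffix. Kept cells held 51969226 and 62738015 UMIs. The counts come from the 3′ end and were not scaled by length, so levels of different genes are compared in molecules.

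UMIs were summed per cell type or subcluster and library, with Python 3.11.15, numpy 2.4.6, pandas 2.3.3 and scipy 1.17.1. Intervals are exact Poisson for CPM and shares of summed UMIs, Clopper-Pearson for isoform, mt- make-up and cell shares, and conditional binomial for ratios (95%). For genes without a UMI, 3 counts served as the upper limit. A gene counted as lower or higher when at least 1.5-fold apart in the same direction in both libraries, among genes with at least 10 CPM on average over Ery 1 to Ery 6 in each. Since this filter averages the subclusters, a gene of low level can pass it only through the subclusters where it is high. Shares without globin leave out 10 globin genes. No test was made, because cells are not replicates and both libraries are of 1 liver. No doublet caller was run. Doublets had been sorted out before loading, so barcodes of cells that came to share a droplet later may remain.

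The named members are, per complex, the most abundant, the 2 highest and 2 lowest Ery 5 to Ery 1 ratios, all Sdh genes, all mt- mRNAs and the isoform groups. Other genes were chosen after their values were seen. Members and lists were chosen with earlier results of these data known. Folds and intervals were tested on simulated counts. Gene positions were not needed for the counts, and promoters are from RefSeq (GRCm38.p6). Alternatives are listed in the closing section.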

Additional observations from a re-analysis of the deposited data

Results flagged for a closer look

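A set of barcodes outside the comparisons carried mostly mt- UMIs. In library 1, 284 barcodes called as cells were left out of the deposited cell table, and 80.5% (80.1 to 80.8) of their 235071 UMIs came from mt- genes, far above the 2.75% of kept cells and the 4.20% of free RNA. Nuclear members took 0.255% of their UMIs, or 2.66% of what was left after mt- and globin UMIs.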

How the results depend on the processing

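No paired analysis was possible because the data hold 1 group of 2 technical libraries and no test. The log2 ratios below are means of both libraries. The setting that mattered was the denominator. Without globin UMIs the nuclear ratio of Ery 5 to Ery 1 moved from -1.95 to -0.50, and that of Eryb to Ery from -1.04 to -0.11. The mt- ratio of Ery 5 to Ery 1 changed sign, from -0.93 to 0.52, as did that of Ery 6 to Ery 1, from -1.11 to 0.60, and that of Eryb to Ery moved from -0.08 to 0.84. The nuclear members lower in Ery 5 went from 71 to 35 of 76, and the mt- members from 8 to 4 of 11, or 5 with a fold of 2. Of all genes tested, 69.6% were at least 1.5-fold lower on all UMIs and 47.5% without globin. Removing globin UMIs by itself raises every share in globin-rich cells.

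The mt- to nuclear ratio of Ery 4 to Ery 1 (1.26) was 1.62 as a mean over cells, 0.97 in cells with at least 1000 genes and under 10% mt- UMIs, and 1.02 without cells over 10% mt- UMIs, an alternative chosen after seeing the data. For the mean over cells the cause was not tested.

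Leaving out each library in turn gave -2.30 and -1.59 for the nuclear ratio of Ery 5 to Ery 1, -1.28 and -0.57 for the mt- ratio, 1.09 and 1.42 for the mt- to nuclear ratio of Ery 4, -1.29 and -0.78 (nuclear) and -0.44 and 0.28 (mt-) for Eryb to Ery, and counts of 71 to 76 nuclear and 8 to 10 mt- members. The sign of the mt- ratio of Eryb to Ery therefore depends on the library. Other alternatives were subtracting 10% free RNA, a minimum of 4387 UMIs per cell, and leaving out the 4% of cells with most UMIs. The low-mt- cells of Ery 2 were also left out, an alternative chosen after seeing the data. None of these moved the log2 ratios above beyond the spread between libraries. Leaving out mt- UMIs, run for the nuclear ratios only, did not either. The member counts were not taken under these alternatives. The Hepa to HPSC ratios (0.32 nuclear, 0.41 mt-) stayed between 0.23 and 0.35 and between 0.35 and 0.47 under all alternatives run. Both libraries are of 1 liver, so the spread between animals is unknown.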
